A study of Rattus norvegicus with 23 samples.

Results

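The proton sensors followed here were 3 acid-sensing G protein-coupled receptors (Gpr4, Gpr65 and Gpr132), 2 acid-sensing ion channels of neurons and epithelia (Asic1 and Asic3), the vanilloid receptor channel Trpv1, the lysosomal channel Tmem175 and the proton-activated chloride channel Pacc1. They were chosen by gene symbol from the 30452 genes of the rat count table. All 8 were present, Pacc1 under its current symbol and not under the older symbol Tmem206. RNA-sequencing after poly(A) enrichment had been done on 2 established rat kidney cell lines, NRK-52E (labelled epithelial) and NRK-49F (fibroblasts). Both lines were starved of serum for 24 h before an exposure of 48 h to pH 7.4 or to pH 6.0, set with HCl, and the labels name no genetic change. NRK-52E cells gave 6 samples at pH 7.4 and 6 at pH 6.0, and NRK-49F cells gave 6 and 5. The labels further place the NRK-52E samples in sample groups 1 and 3 and the NRK-49F samples in sample groups 4 and 6, each holding both pH values, without saying what a sample group is. The labels do not say whether the samples of a group were separate cultures, so the p-values measure the spread between these samples, which may be technical.

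Cells notice an acid surrounding through proteins whose histidines or acidic residues take up protons. Gpr4 and Gpr65 are known to signal mainly through Gs and cyclic AMP (cAMP), while the family member Gpr132 responds to protons weakly and is best known from lymphocytes and macrophages. Asic1 and Asic3 are sodium channels of the degenerin family and Trpv1 is the capsaicin- and heat-gated cation channel, all of them best known from sensory neurons. Tmem175 conducts potassium and protons across the membrane of endosomes and lysosomes, and Pacc1 opens a chloride pore at low pH in the plasma membrane and in endosomes. Acid sensing by Gpr4 is known to take part in the acid handling of the kidney.

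Totals ranged from 16412564 to 34250535 counts per sample. Levels are given as FPM, counts per 1000000 of the library size scaled by trimmed mean of M-values (TMM). A gene with more than 3 counts in a sample was called detected there, and 3 counts equalled 0.0839 to 0.203 FPM depending on the sample. All 55 pairs of samples of a same group differed by more than counting noise, with a chi-square per degree of freedom of 5.91 to 133. Gene length was not used here, so levels are compared between samples and not between genes. Of the 8 genes, 5 passed the filter on low counts and were tested among 14777 genes (Gpr4, Asic1, Trpv1, Tmem175 and Pacc1). Gpr65, Gpr132 and Asic3 did not.

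In NRK-52E cells at pH 6.0, Gpr4 fell to less than its level in any control sample and Trpv1 rose above all of its control samples, while the other 3 tested genes did not pass the threshold. In NRK-49F cells, Trpv1 and Pacc1 rose, again without overlap between the pH values. The share of all genes without such overlap was not counted. Gpr4 was read almost wholly in NRK-52E cells and was near or under the detection level in NRK-49F cells. Gpr65 was under the detection level in 22 of the 23 samples, and Gpr132 in all 12 samples of NRK-52E cells. Tmem175 and Asic1 did not pass the threshold for pH in either line.

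**Figure D1:**
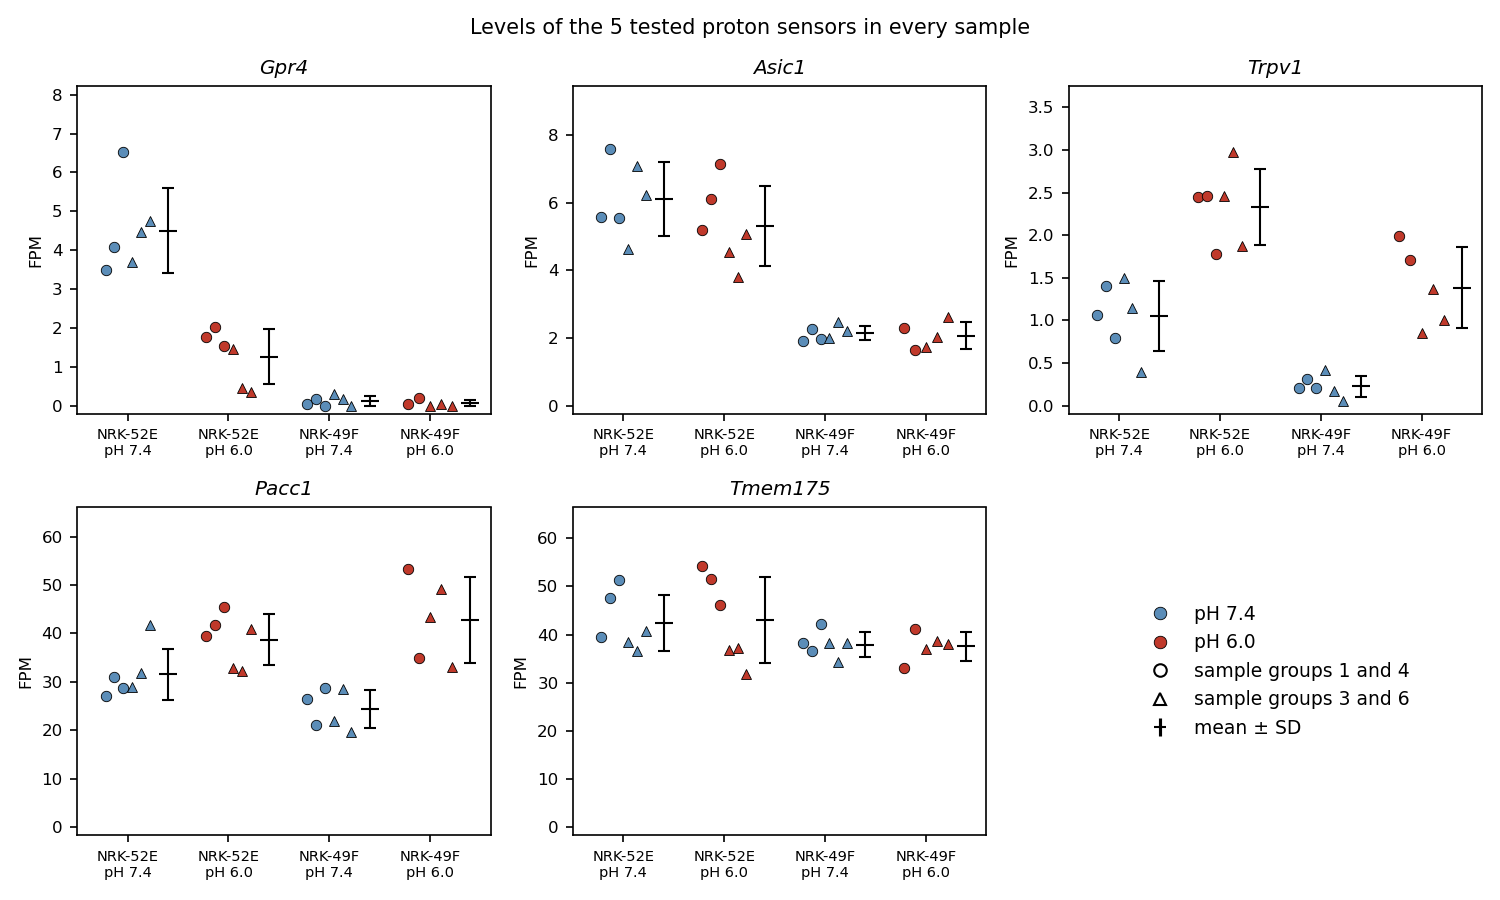
Level of each of the 5 tested genes in FPM (vertical axis, linear, from 0) in each sample of the 4 groups, with circles for sample groups 1 and 4, triangles for 3 and 6, and the mean ± SD beside the points. Gpr4 is high in NRK-52E cells at pH 7.4 (3.50 to 6.53 FPM) and lower at pH 6.0 (0.345 to 2.02 FPM), while the pH 6.0 points of Trpv1 lie above the pH 7.4 points in both lines.

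The receptors were examined first. Gpr4 (ENSRNOG00000016362, chromosome 1) was read in NRK-52E cells at pH 7.4 at 3.50, 4.09 and 6.53 FPM in sample group 1 and at 3.69, 4.47 and 4.75 FPM in sample group 3, from 76 to 173 counts. At pH 6.0 it was at 1.75, 2.02 and 1.54 FPM in sample group 1 and at 1.47, 0.441 and 0.345 FPM in sample group 3. The groups did not overlap, and fewer cells with the receptor and less RNA per cell cannot be told apart in these bulk samples. Within the acid samples those of sample group 3 were all lower than those of sample group 1. The means were 4.50 ± 1.10 and 1.26 ± 0.700 FPM (SD, n = 6 each). Gpr4 thus fell 3.55-fold, by 1.83 on the log2 scale (SE 0.39, 95% interval -2.64 to -1.01, adjusted p = 0.00032, edgeR's quasi-likelihood F test, adjusted by Benjamini-Hochberg over 14777 genes). Relative to the median gene of this comparison, which moved by -0.12, the change was -1.70. Within single sample groups the log2 fold change of Gpr4 was -1.41 in group 1 (adjusted p = 0.00666) and -2.51 in group 3 (adjusted p = 0.00153, the same edgeR test).

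In NRK-49F cells, Gpr4 had 1, 4, 0, 8, 5 and 0 counts in the 6 samples at pH 7.4 and 1, 3, 0, 1 and 0 counts in the 5 samples at pH 6.0. It was over the detection level in 3 of 6 control samples and in 0 of 5 acid samples. The sample with 8 counts, replicate A051, also held the most signal of 13 other NRK-52E genes. Their median in A051 was 2.61% of their NRK-52E mean at pH 7.4, against at most 0.43% in the other NRK-49F samples. These genes were chosen from these data as high in NRK-52E cells at pH 7.4 and nearly absent from most NRK-49F samples. Low values in most NRK-49F samples thus follow from the choice. Gpr4 in A051 was at 6.73% of its NRK-52E mean at pH 7.4. It was at 3.95% and 4.06% of that mean in A040 and A043, where the median of the 13 genes was 0.188% and 0.0416%. How far signal of the other line adds to these counts was not tested. The change at pH 6.0 did not pass the threshold (log2 fold change -1.32, SE 0.92, adjusted p = 0.308, the same edgeR test), and its 95% interval of -3.23 to 0.58 held both 0 and the change seen in NRK-52E cells. With each sample left out, this change was -2.27 (without A043) to -0.80 (without A051). The changes in the lines were not told apart by the interaction test (-0.50, 95% interval -3.44 to 2.44, adjusted p = 0.811 in edgeR), and with each sample left out the difference was -1.02 (without A051) to 0.44 (without A043), past 0 in sign.

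At pH 7.4, Gpr4 was 34.5-fold higher in NRK-52E than in NRK-49F cells (log2 difference 5.11, 95% interval 4.04 to 6.17, adjusted p = 3.88e-09), and at pH 6.0 24.3-fold (4.60, adjusted p = 2.03e-06, edgeR). Both differences held without overlap between samples. They rest on the few counts in NRK-49F cells: the log2 difference was 5.63 at pH 7.4 without A051 and 5.55 at pH 6.0 without A043. With so few counts there, Gpr4 passed the filter only through NRK-52E cells, so the direction of these differences follows from the filter.

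Gpr65 (ENSRNOG00000065590, chromosome 6) had 0, 0, 1, 4, 0 and 0 counts in NRK-52E cells at pH 7.4, and 2 counts in 1 of the 6 samples at pH 6.0 with 0 in the others. In all 11 NRK-49F samples it had 0 counts, which allows up to 3 counts or 0.0999 to 0.203 FPM per sample at pH 7.4 and 0.108 to 0.183 FPM at pH 6.0. The 4 counts were in replicate A033 (0.182 FPM). Gpr65 shares its locus with Galc in the RefSeq annotation of GRCr8, and the counting options given name no strand setting. Whether their exons overlap was not checked, so reads of the pair may not be told apart.

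Gpr132 (ENSRNOG00000013914, chromosome 6) had 0 counts in all 12 NRK-52E samples, an upper limit of 0.0839 to 0.170 FPM per sample at pH 7.4. In NRK-49F cells at pH 7.4 it had 1 count in A053 and 0 in the other 5 samples. At pH 6.0 it had 10 and 4 counts in the 2 samples of sample group 4 and 7, 0 and 0 counts in the 3 samples of sample group 6. Hence 3 of 5 acid samples were over the detection level and 2 were at 0, like the control samples. In a fit without the filter, over 22243 genes with at least 1 count, the change in NRK-49F cells passed the threshold (log2 fold change 3.98, adjusted p = 0.0289, edgeR), with the fitted size set by a control group of 1 count in all. In that fit 17.9% of all genes passed. There Gpr132 was also lower in NRK-52E than in NRK-49F cells at pH 6.0 (-5.21, adjusted p = 0.00323, edgeR), with overlapping samples. Of all genes, 55.7% differed in that comparison.

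The 250 bases upstream of the transcription start of Gpr132 are shown as the receptor promoter with a match among 5 motifs that were searched on both strands, and those of Trpv1 and Pacc1, the channels regulated in NRK-49F cells, and of Tmem175 follow for comparison. The motifs were the full cAMP response element TGACGTCA, its shorter form TGACG, the AP-1 site TGANTCA, the C/EBP-ATF element TGATGNAA and the E-box CACGTG of lysosomal genes, which RefSeq promoters of this length on GRCr8 held in 1.59%, 18.2%, 6.34%, 3.4% and 5.59% of 33469 cases. TGACG lies within TGACGTCA, so a full element counts under both. Capitals mark the matches, TGATGTAA in Gpr132, and TGACG and CACGTG in Tmem175. The positions are chr6:137757026-137757275 (minus strand) for Gpr132, chr10:58349686-58349935 (plus strand) for Trpv1, chr13:105435581-105435830 (plus strand) for Pacc1 and chr14:1234019-1234268 (minus strand) for Tmem175, each written 5′ to 3′ along its gene.
Gpr132: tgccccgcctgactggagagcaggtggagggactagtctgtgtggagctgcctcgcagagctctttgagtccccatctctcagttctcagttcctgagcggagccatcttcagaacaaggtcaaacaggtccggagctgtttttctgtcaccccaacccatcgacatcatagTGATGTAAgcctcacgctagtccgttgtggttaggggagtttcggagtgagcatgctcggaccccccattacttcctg
Trpv1: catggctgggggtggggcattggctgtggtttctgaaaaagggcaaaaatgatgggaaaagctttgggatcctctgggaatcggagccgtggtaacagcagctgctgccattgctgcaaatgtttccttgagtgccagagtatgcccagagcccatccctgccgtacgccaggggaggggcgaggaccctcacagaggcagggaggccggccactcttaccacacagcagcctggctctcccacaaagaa
Pacc1: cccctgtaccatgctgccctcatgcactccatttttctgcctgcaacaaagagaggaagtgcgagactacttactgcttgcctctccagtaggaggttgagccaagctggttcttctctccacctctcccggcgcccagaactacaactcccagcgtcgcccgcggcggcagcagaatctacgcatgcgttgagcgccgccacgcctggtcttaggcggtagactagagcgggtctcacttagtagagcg
Tmem175: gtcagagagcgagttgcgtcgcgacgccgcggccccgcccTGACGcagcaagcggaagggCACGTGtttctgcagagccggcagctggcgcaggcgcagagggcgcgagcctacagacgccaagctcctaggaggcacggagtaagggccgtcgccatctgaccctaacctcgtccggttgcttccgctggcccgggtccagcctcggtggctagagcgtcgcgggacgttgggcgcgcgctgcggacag
The match in Gpr132 starts 78 bases before the transcription start, and those in Tmem175 start 210 (TGACG) and 190 (CACGTG) bases before it. The promoters of Gpr4, Gpr65, Asic1, Asic3, Trpv1 and Pacc1 held none of the 5 motifs in this window. The G and C content was 70.4% for Tmem175, 72.8% for Asic1 and 36.4% for Gpr65, against a median of 51.2% over all promoters. A match describes letters and not a bound site, and the absence of a match says nothing about any factor.

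**Figure D2:**
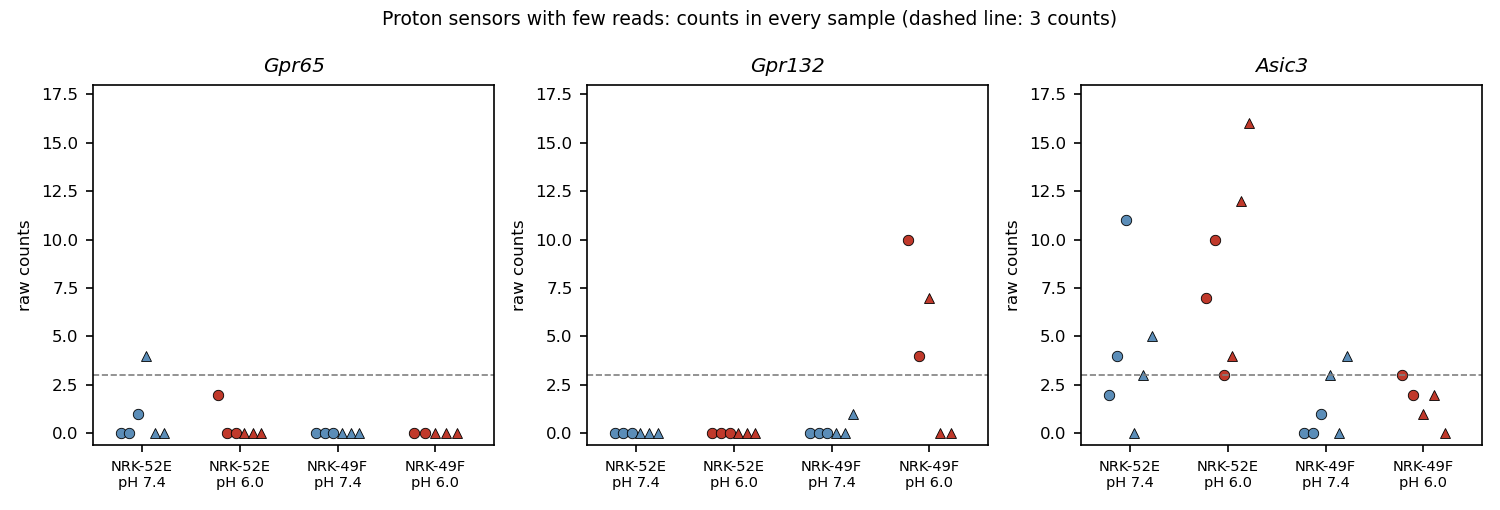
Raw counts (vertical axis) of the 3 genes under the filter, Gpr65, Gpr132 and Asic3, in each sample of the 4 groups, with circles for sample groups 1 and 4, triangles for 3 and 6, and a dashed line at 3 counts. Gpr65 passes the line in 1 sample, Gpr132 in 3 acid samples of NRK-49F cells, and Asic3 mainly in NRK-52E cells.

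Among the proton-gated sodium channels, Asic1 (ENSRNOG00000059765, chromosome 7) was detected in all 23 samples. In NRK-52E cells it ranged from 4.64 to 7.59 FPM at pH 7.4 (median 5.91) and from 3.81 to 7.16 FPM at pH 6.0 (median 5.14), and in NRK-49F cells from 1.92 to 2.46 FPM at pH 7.4 (median 2.11). The 5 acid samples of NRK-49F cells were at 2.29, 1.65, 1.74, 2.02 and 2.61 FPM. The pH values overlapped in both lines, while the lines did not overlap at either pH. The log2 fold change at pH 6.0 was -0.19 in NRK-52E (95% interval -0.52 to 0.13, adjusted p = 0.299) and -0.06 in NRK-49F cells (95% interval -0.43 to 0.31, adjusted p = 0.85, edgeR's test). Asic1 was 2.84-fold higher in NRK-52E than in NRK-49F cells at pH 7.4 (log2 difference 1.51, adjusted p = 1.59e-08) and 1.37 higher on the log2 scale at pH 6.0 (adjusted p = 1.8e-07, edgeR).

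Asic3 (ENSRNOG00000008380, chromosome 4), a channel known from pain-sensing neurons, stayed near the detection level. Its counts were 2, 4, 11, 0, 3 and 5 in NRK-52E cells at pH 7.4 and 7, 10, 3, 4, 12 and 16 at pH 6.0, so that 3 of 6 and 5 of 6 samples were over 3 counts. In NRK-49F cells it had 0, 0, 1, 3, 0 and 4 counts at pH 7.4 and 3, 2, 1, 2 and 0 counts at pH 6.0, with 1 of 6 and 0 of 5 samples over 3 counts. The values of all groups overlapped. In the fit without the filter, the change in NRK-52E cells did not pass the threshold (log2 fold change 1.22, adjusted p = 0.176), and the lines differed at pH 6.0 (2.47 higher in NRK-52E, adjusted p = 0.0137) but not past the threshold at pH 7.4 (1.54, adjusted p = 0.131, edgeR). In that fit 55.7% of all genes differed between the lines at pH 6.0.

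Trpv1 (ENSRNOG00000019486, chromosome 10) was the gene of this set regulated in both lines. In NRK-52E cells at pH 7.4 it was at 1.06, 1.40, 0.792, 1.50, 1.15 and 0.396 FPM (7 to 38 counts), and at pH 6.0 at 2.44, 2.46, 1.78, 2.46, 2.98 and 1.87 FPM (38 to 61 counts). In NRK-49F cells it was at 0.0539 to 0.417 FPM at pH 7.4 (median 0.206, 1 to 11 counts, over the detection level in 4 of 6 samples). The 5 acid samples of NRK-49F cells were at 1.99, 1.71, 0.853, 1.37 and 1.00 FPM (18 to 39 counts). All acid samples lay above all control samples of their line.

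In NRK-52E cells the mean of Trpv1 went from 1.05 ± 0.407 to 2.33 ± 0.443 FPM (SD, n = 6 at each pH). In NRK-49F cells it went from 0.227 ± 0.125 (n = 6) to 1.38 ± 0.474 FPM (n = 5). It rose 2.20-fold in NRK-52E (log2 fold change 1.14, SE 0.29, adjusted p = 0.00152) and 5.80-fold in NRK-49F cells (2.54, SE 0.36, adjusted p = 7.94e-06, the same edgeR test). Within sample groups 1 and 3 of NRK-52E cells the log2 fold change of Trpv1 was 1.04 and 1.24 (adjusted p = 0.0114 and 0.04), and within groups 4 and 6 of NRK-49F cells 2.90 and 2.24 (adjusted p = 0.0004 and 0.0171, the same edgeR test). The rise was larger in NRK-49F cells, with a difference of -1.40 for NRK-52E minus NRK-49F (SE 0.46, adjusted p = 0.0179 by edgeR's interaction test). This difference was -1.86 between sample groups 1 and 4 (adjusted p = 0.0202) and did not pass the threshold between groups 3 and 6 (-1.01, adjusted p = 0.317, edgeR).

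By mean level, Trpv1 was ordered NRK-52E at pH 6.0, NRK-49F at pH 6.0, NRK-52E at pH 7.4 and NRK-49F at pH 7.4. Samples of neighbouring groups overlapped at each step of this order. At pH 7.4, Trpv1 was higher in NRK-52E cells (log2 difference 2.15, adjusted p = 8.01e-06), although 1 control sample of NRK-52E cells (A035) lay within the range of NRK-49F cells. At pH 6.0 the log2 difference was 0.75 (adjusted p = 0.0267, edgeR), and without replicate A037, A054 or A056 it no longer passed the threshold (0.68, 0.61 and 0.61, adjusted p = 0.0566, 0.0845 and 0.0898).

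Pacc1 (ENSRNOG00000003915, chromosome 13), the chloride channel, was detected in all samples with 366 to 1565 counts. In NRK-49F cells it was at 19.7 to 28.7 FPM at pH 7.4 (median 24.2) and at 53.4, 34.9, 43.3, 49.3 and 33.1 FPM in the 5 samples at pH 6.0, without overlap. In NRK-52E cells it was at 27.1 to 41.7 FPM at pH 7.4 (median 30.0) and at 32.2 to 45.6 FPM at pH 6.0 (median 40.1). The latter groups overlapped, since replicate A035 at pH 7.4 (41.7 FPM) stood apart from the other 5 control samples (27.1 to 31.8 FPM). Pacc1 shares its locus with LOC134481545 in the RefSeq annotation of GRCr8, and whether their exons overlap was not checked.

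Pacc1 rose 1.75-fold in NRK-49F cells (log2 fold change 0.81, SE 0.14, adjusted p = 9.66e-05, edgeR), by 0.80 within sample group 4 (adjusted p = 0.00749) and 0.84 within sample group 6 (adjusted p = 0.00864). In NRK-52E cells the log2 fold change of 0.30 (SE 0.13, 95% interval 0.02 to 0.57) was just outside the threshold (adjusted p = 0.0547). It was 0.55 within sample group 1 (adjusted p = 0.0128) and 0.05 within sample group 3 (adjusted p = 0.852), the sample group that holds A035 (the same edgeR test). It passed the threshold when any of 5 samples was left out, at 0.39 without A035 (adjusted p = 0.0109), 0.35 without A036 (adjusted p = 0.0356), 0.35 without A037 (adjusted p = 0.0327), 0.30 without A042 (adjusted p = 0.0444) and 0.30 without A056 (adjusted p = 0.0473, edgeR), the last 2 being NRK-49F samples. The interaction test gave -0.51 for NRK-52E minus NRK-49F (adjusted p = 0.0367). That call was lost when any of 9 samples was left out (A035, A036, A037, A040, A042, A051, A053, A054 or A055), with adjusted p = 0.0541 to 0.0833 and differences of -0.51 to -0.42. At pH 7.4, Pacc1 was 1.29-fold higher in NRK-52E cells (log2 difference 0.37, adjusted p = 0.0181), which was lost without A035 (0.27, adjusted p = 0.0628), and at pH 6.0 the lines were not told apart (-0.14, 95% interval -0.43 to 0.14, adjusted p = 0.357, edgeR).

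Tmem175 (ENSRNOG00000000044, chromosome 14) was detected in all samples with 624 to 1583 counts. It was at 36.6 to 51.4 FPM at pH 7.4 (median 40.1) and at 31.8 to 54.2 FPM at pH 6.0 (median 41.7) in NRK-52E cells. The NRK-49F samples were at 34.2 to 42.2 FPM at pH 7.4 (median 38.2), and at 33, 41.1, 36.9, 38.6 and 38 FPM in the acid samples. All 4 groups overlapped, and the acid NRK-52E samples split by sample group, with 46.1 to 54.2 FPM in group 1 and 31.8 to 37.3 FPM in group 3. The log2 fold change at pH 6.0 was 0.02 in NRK-52E (95% interval -0.21 to 0.25, adjusted p = 0.904) and -0.01 in NRK-49F cells (95% interval -0.26 to 0.23, adjusted p = 0.951). The lines differed by 0.16 at pH 7.4 (adjusted p = 0.207) and by 0.19 at pH 6.0 (adjusted p = 0.141, edgeR), the latter being 0.27 without A038 (adjusted p = 0.0331).

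**Figure D3:**
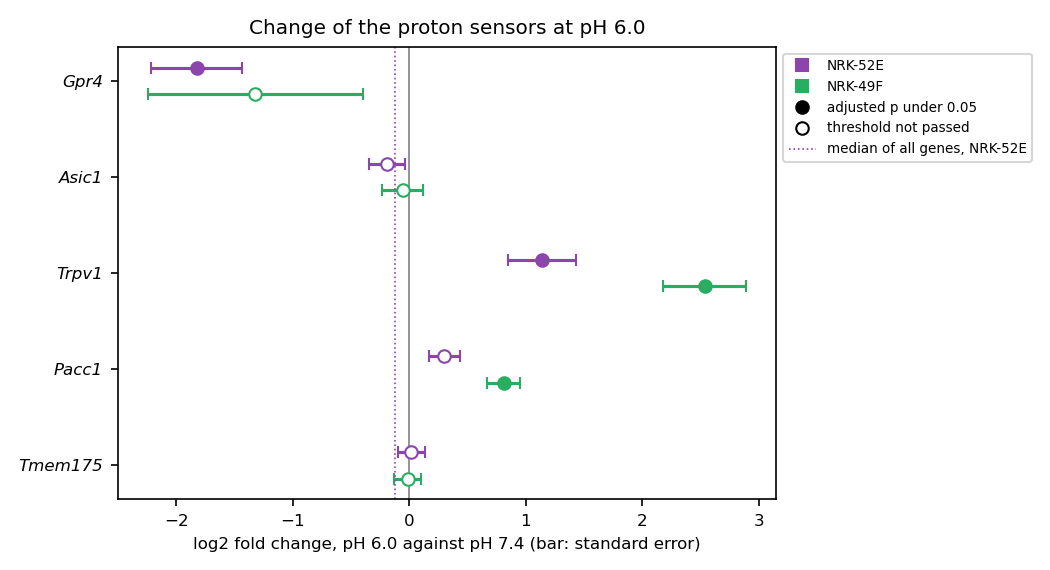
Log2 fold change at pH 6.0 against pH 7.4 (horizontal axis) with its standard error for the 5 tested genes in NRK-52E (purple) and NRK-49F cells (green), filled where the adjusted p was under 0.05. Gpr4 lies to the left and Trpv1 to the right in both lines, Pacc1 is filled in NRK-49F cells, and Asic1 and Tmem175 lie near 0.

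Counted together, 2 of the 5 tested genes passed the threshold in NRK-52E cells, 1 higher (Trpv1) and 1 lower (Gpr4), where 61.2% of all genes tested passed (24.7% higher and 36.6% lower). In NRK-49F cells 2 of 5 passed, both higher (Trpv1 and Pacc1), where 28.9% of all genes did (14.5% higher and 14.4% lower). The changes of the lines differed for 2 of 5 (Trpv1 and Pacc1, both lower in NRK-52E minus NRK-49F), against 41.4% of all genes (16.8% higher and 24.7% lower). Between the lines, 4 of 5 differed at pH 7.4 (Gpr4, Asic1, Trpv1 and Pacc1) and 3 of 5 at pH 6.0 (Gpr4, Asic1 and Trpv1), each higher in NRK-52E cells, against 68.8% of all genes at pH 7.4 (35% higher in NRK-52E cells and 33.9% lower) and 75.5% at pH 6.0 (36.6% higher and 38.9% lower). Gpr4 had at most 8 counts in an NRK-49F sample and passed the filter only through NRK-52E cells. Its direction between the lines thus follows from the filter. Gpr132, which the filter removed, was lower in NRK-52E cells at pH 6.0 in the fit without the filter (-5.21, adjusted p = 0.00323, edgeR). The shares of the 5 genes were not tested against these backgrounds. The comparisons of a line share its control samples with the comparison between the lines.

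Other proteins that respond to acid were read from a list of 15 genes, of which 14 were in the table and 4 passed the filter. In NRK-52E cells 2 of 4 fell and none rose. These were the acid-sensitive potassium channel Kcnk5 (log2 fold change -0.89, adjusted p = 0.00251) and the kinase Ptk2b (Pyk2), known as a step of acid signalling in the proximal tubule (-0.66, adjusted p = 5.16e-05). In NRK-49F cells 1 of 4 fell, again Ptk2b (-0.55, adjusted p = 0.00402, edgeR). Asic2, Kcnk1, Kcnk9 and Insrr had 0 counts in all 23 samples. The list's median log2 fold change was -0.20 in NRK-52E and -0.08 in NRK-49F cells, beside -0.12 and 0.00 for all genes. Of all genes tested, 36.6% fell in NRK-52E and 14.4% in NRK-49F cells, while 24.7% and 14.5% rose.

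Of 31 genes of receptor coupling (G proteins, adenylyl cyclases, protein kinase A, exchange factors, kinases and arrestins), 29 were tested, and in NRK-52E cells 8 rose, 8 fell and 13 did not pass. The largest changes were falls of the adenylyl cyclase Adcy4 (-1.62, adjusted p = 0.00123), the protein kinase A regulatory subunit Prkar2b (-1.42, adjusted p = 2.82e-05) and the receptor-desensitizing arrestin Arrb2 (-1.33, adjusted p = 5.24e-08, edgeR). In NRK-49F cells 1 rose, 3 fell and 25 did not pass. The falls were those of Arhgef11 (-0.61, adjusted p = 0.0359) and Arhgef1 (-0.48, adjusted p = 6.19e-05), guanine nucleotide exchange factors that receptors act on, and of the G protein Gna12 (-0.32, adjusted p = 0.000904). The gene that rose, named after its value was seen, was the catalytic subunit Prkaca (0.28, adjusted p = 0.00375, edgeR). The median of the list was 0.11 in NRK-52E and -0.14 in NRK-49F cells. Among all tested genes of the NRK-52E line, 24.7% rose and 36.6% fell. The NRK-49F shares were 14.5% up and 14.4% down, and the list was not tested against them. The row named Gnas, the gene of Gs, held a mean of only 0.418 FPM, so the level of Gs was not read from it.

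Genes that cAMP is known to induce were 12, of which 10 were tested. In NRK-52E cells 3 rose, 4 fell and 3 did not pass, with the largest changes, among genes averaging at least 1 FPM, in the phosphodiesterases Pde4b (-1.99, adjusted p = 0.0204) and Pde4d (-1.56, adjusted p = 0.00152) and in the nuclear receptor Nr4a2 (1.83, adjusted p = 8.82e-09). The nuclear receptor Nr4a3, under that limit at a mean of 0.623 FPM and named after its value was seen, changed more (2.89, adjusted p = 1.2e-05, edgeR). Pde4b had at most 8 counts in an NRK-52E sample. In NRK-49F cells only Pde4b passed (-1.23, adjusted p = 0.00432, edgeR), falling from a mean of 8.75 ± 2.37 (SD, n = 6) to 3.74 ± 1.53 FPM (n = 5). The median of the list was -0.14 in NRK-52E and -0.23 in NRK-49F cells. Its counts stand beside 24.7% of all tested genes rising and 36.6% falling in the NRK-52E line. With NRK-49F these shares were 14.5% and 14.4%, and no test against them was made.

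Around Tmem175, 21 genes of lysosomal ion transport were tested of 25 listed. In NRK-52E cells 10 rose, 2 fell and 9 did not pass, led by the proton pump subunit Atp6v1d (1.94, adjusted p = 9.54e-13), from 88.5 ± 7.23 to 340 ± 65.2 FPM (SD, n = 6 each). The pump-associated receptor Atp6ap2 (0.82, adjusted p = 3.6e-07) and the subunit Atp6v1e1 (0.69, adjusted p = 2.47e-05) followed. In NRK-49F cells 4 rose, 1 fell and 16 did not pass, and the largest changes were those of the endolysosomal cation channel Mcoln3 (3.49, adjusted p = 0.000588), Atp6v1h (0.60, adjusted p = 2.06e-06) and Atp6v1e1 (0.38, adjusted p = 0.0225, edgeR). Mcoln3 was at 0 to 0.400 FPM in control and 1.28 to 2.20 FPM in acid samples of NRK-49F cells. The median of the list was 0.17 in NRK-52E and 0.01 in NRK-49F cells. Genes higher at pH 6.0 made up 24.7% of all tested genes in the NRK-52E line, and genes lower there 36.6%. For the NRK-49F line the shares were 14.5% higher and 14.4% lower. The list was not tested against these shares.

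**Figure D4:**
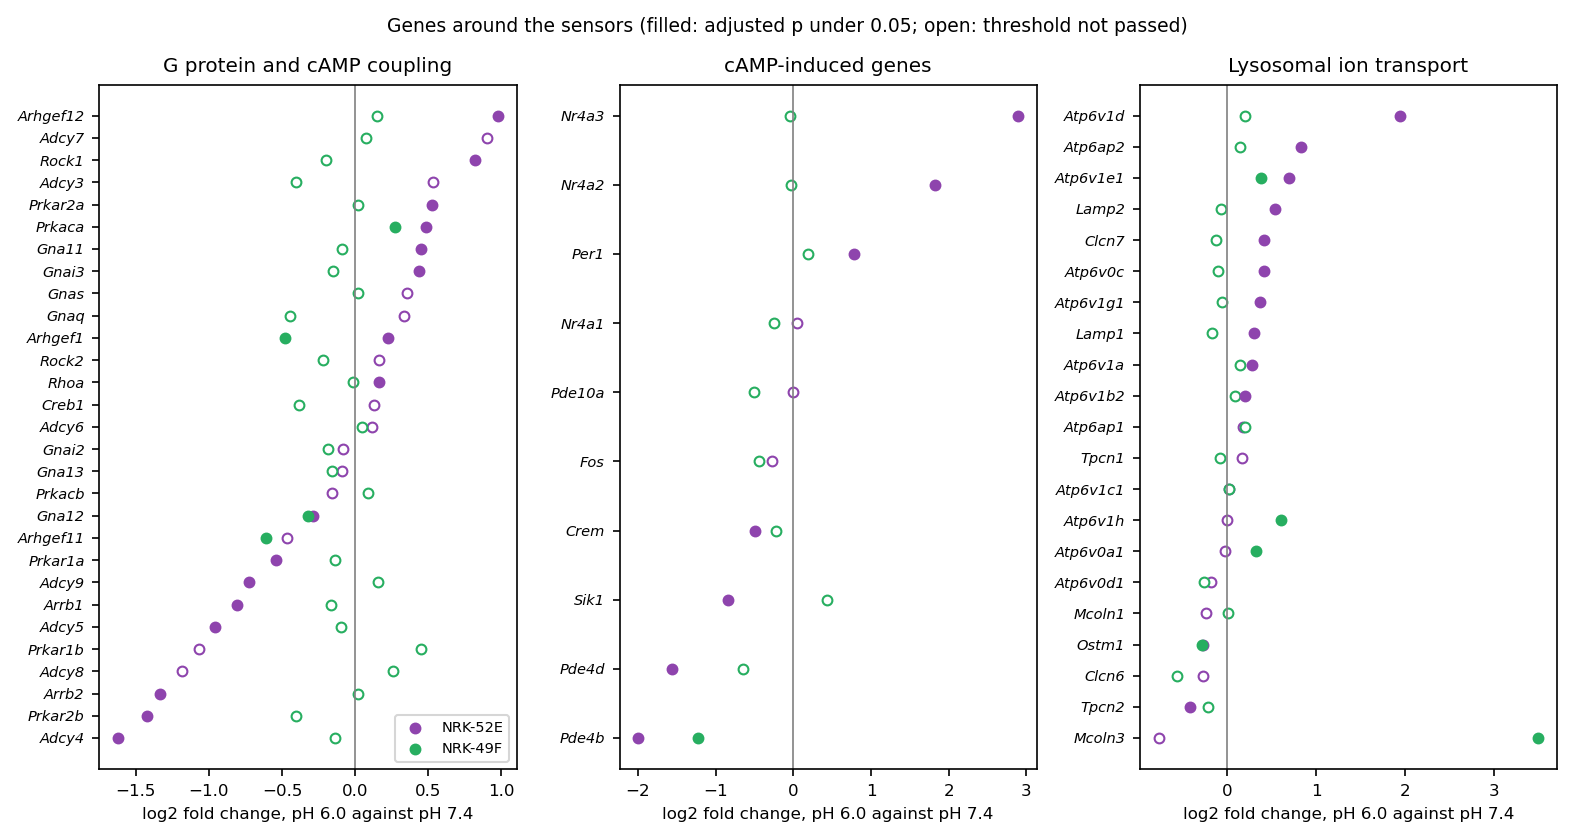
Log2 fold change at pH 6.0 against pH 7.4 (horizontal axes) of the tested genes of receptor coupling, of cAMP-induced genes and of lysosomal ion transport, 1 gene per row, in NRK-52E (purple) and NRK-49F cells (green), filled where the adjusted p was under 0.05. Filled points lie on both sides of 0 in NRK-52E cells, from -1.99 (Pde4b) to 2.89 (Nr4a3), and are fewer in NRK-49F cells, where Mcoln3 stands at 3.49.

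The identity of the cells bears on these receptors, as several are known from leukocytes and neurons. In NRK-52E cells the leukocyte markers Ptprc, Laptm5 and Tyrobp had 0 counts in all 12 samples. In NRK-49F cells Ptprc, Cd3e, Tyrobp and Itgam had 0 counts in the 5 acid samples, 3 of which held the counts of Gpr132. Of this list 3 genes were tested. The macrophage marker Cd68 rose at pH 6.0 by 1.10 on the log2 scale in NRK-52E (adjusted p = 0.00167) and by 2.94 in NRK-49F cells (adjusted p = 2.73e-09), and the growth factor receptor Csf1r rose by 1.28 in NRK-52E cells (adjusted p = 0.00684, edgeR). Cd14 was at a mean of 97.5 FPM over all samples and did not pass the threshold in either line. The part of these genes in the counts of Gpr132 was not tested. The 10 leukocyte markers summed to 84.3 to 108 FPM in NRK-52E cells at pH 7.4 and 61.0 to 173 FPM at pH 6.0, and to 122 to 138 and 294 to 342 FPM in NRK-49F cells. Markers of sensory neurons, the known site of Trpv1 and Asic3, held Scn9a, Scn10a and Tac1 at 0 in all 23 samples, and 3 of the list were tested. The intermediate filament gene Prph was 8.36 higher on the log2 scale in NRK-52E than in NRK-49F cells at pH 7.4 (adjusted p = 1.56e-15) and fell by 2.40 at pH 6.0 in NRK-52E cells (adjusted p = 5.62e-09, edgeR). The neuronal tubulin Tubb3, at a mean of 0.385 FPM, rose by 3.14 in NRK-52E (adjusted p = 5.89e-05) and fell by 3.21 in NRK-49F cells (adjusted p = 0.0185, edgeR). Uchl1 did not pass for pH in either line and was lower in NRK-52E cells at pH 7.4 (-6.56, adjusted p = 1.78e-10, edgeR). Prph passed the filter on low counts only through NRK-52E cells and Uchl1 only through NRK-49F cells. The direction of their differences between the lines thus follows from the filter. The part of these genes in the levels of Trpv1 and Asic3 was not tested. Their 10 genes summed to 16.4 to 37.2 FPM at pH 7.4 and 3.50 to 7.07 FPM at pH 6.0 in NRK-52E cells, and to 1.56 to 5.07 and 1.72 to 5.25 FPM in NRK-49F cells.

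The labelled identities were checked on defining markers. Of 10 epithelial markers 8 were in the table, and in NRK-52E cells Esrp1 had 0 counts and Epcam, Cldn4, Krt18 and Cdh1 were at or near 0, while Krt8 was higher in NRK-49F cells (log2 difference of -0.75 at pH 7.4) and the junction gene Tjp3 higher in NRK-52E cells (3.09). The 8 summed to 462 to 665 FPM at pH 7.4 and 217 to 275 FPM at pH 6.0 in NRK-52E cells, and to 669 to 1209 and 439 to 697 FPM in NRK-49F cells. The 10 fibroblast markers summed to 4901 to 8102 and 1830 to 3110 FPM in NRK-52E cells and to 10494 to 13564 and 7315 to 9806 FPM in NRK-49F cells. Of these markers 8 were tested. At pH 7.4, 7 of 8 were lower in NRK-52E cells, with a median of -7.25 beside 0.02 for all genes. The collagen gene Col3a1 was higher there (2.34, adjusted p = 6.25e-12, edgeR). Dcn had 0 counts in all NRK-52E samples and passed the filter only through NRK-49F cells, so its direction follows from the filter. Whether others of the 7 also passed only through NRK-49F cells was not checked. At pH 6.0, 7 of 8 fell in NRK-52E cells, with a median of -3.53 beside -0.12 for all genes. Among them were the growth factor receptor Pdgfra (-6.08, adjusted p = 3.83e-07) and the adhesion gene Vcam1 (-5.23, adjusted p = 1.34e-05, edgeR). Of the 10 fibroblast markers, 8 had more than 3 counts in any NRK-52E sample at pH 7.4, and 4 at pH 6.0. The part of these markers in the change of Gpr4 and Trpv1 was not tested. Of all genes tested, 33.9% were lower in NRK-52E cells at pH 7.4 and 36.6% fell there at pH 6.0. Over 57 NRK-49F genes, the NRK-52E replicate A021 held a median of 1.43% of their NRK-49F mean at pH 7.4. The median was 0.453% in A022, 0.330% in A033 and at most 0.0390% in the others. These genes were chosen from these data as high in NRK-49F cells at pH 7.4 and nearly absent from most NRK-52E samples. Low values in most NRK-52E samples thus follow from the choice. A021, A022 and A033 are all samples at pH 7.4, while each acid NRK-52E sample was at 0.0153% or less. How far signal of the other line adds to the falls of the fibroblast markers at pH 6.0 was not tested. Without A021 and A051 together, a setting added after the values were seen, Gpr4 changed by -1.89 and Trpv1 by 1.14 in NRK-52E cells and Trpv1 by 2.81 and Pacc1 by 0.78 in NRK-49F cells, all past the threshold.

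Genes with the most similar pattern over the 23 samples were found among 11571 genes averaging 1 FPM or more, by Pearson's coefficient of log2(FPM + 0.5). The 23 points share libraries and fall into 2 cell lines and 2 pH values, so the coefficients are descriptions. For Gpr4 they were Ptpru (0.98), Slc1a7 (0.979) and Prrt2 (0.976), and within the 12 NRK-52E samples 0.957, 0.938 and 0.942, against 0.281, 0.469 and 0.245 within the 11 NRK-49F samples. For Asic1 they were Amigo1 (0.966), Fbxo2 (0.965) and Pnrc1 (0.963), falling to 0.678, 0.817 and 0.652 within NRK-52E and 0.486, 0.188 and 0.366 within NRK-49F cells. Trpv1 was nearest to Akr1c15 (0.928), Zfp386 (0.926) and Mlh3 (0.917), with 0.834, 0.885 and 0.859 within NRK-52E and 0.949, 0.894 and 0.958 within NRK-49F cells. Pacc1 was nearest to Gstm3 (0.964), Selenof (0.921) and Rpain (0.912), with 0.905, 0.877 and 0.866 within NRK-52E and 0.982, 0.957 and 0.947 within NRK-49F cells. For Tmem175, whose acid NRK-52E samples split by sample group, they were Prrt1 (0.867), Cdh24 (0.867) and Pcdh1 (0.838). Their coefficients were 0.895, 0.937 and 0.848 within NRK-52E and 0.540, 0.464 and 0.439 within NRK-49F cells.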

How the data were processed

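Raw counts per gene of the rat cells, 1 table for the whole series, were used as the authors deposited them. Per the paper's methods and the submitters' processing notes, reads were aligned with HISAT2 2.1.0 and counted on exons of the Ensembl annotation with featureCounts, multi-mapping reads included. The notes name the genome build rn6 and the methods another build, so no coordinates were taken from the table. The counting options given name no strand setting, without which featureCounts does not use the strand, and multi-mapping reads can move between near-identical genes. Of 36 sample columns, 23 matched labelled samples and 13 were not used.

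Genes were filtered by edgeR 4.0.16 (filterByExpr by the 4 groups, minimum count 10, minimum total 15), scaled by TMM and fitted in 1 quasi-likelihood model of 4 groups over all 23 samples, with contrasts for pH within each line, for the difference of these changes and for the lines at each pH. P-values were adjusted by Benjamini-Hochberg over 14777 genes (threshold 0.05). Levels were FPM, and 3 counts was the detection level and the limit that a count of 0 allows, covering counting error only. Intervals are at 95% from the fit. Alternatives changed the scaling, the test (edgeR's likelihood ratio test, DESeq2 1.42.0), the filter, the depth and the samples. Leaving out A021 and A051 together was added after the data were seen.

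The genes named were all members, of each list those that passed (if more than 3, the 3 with the largest change and a mean of at least 1 FPM), and 3 genes of similar pattern per tested member. Members and lists were chosen with earlier results of these data known. Promoters came from RefSeq tables of GRCr8 and matched all 8 genes by symbol. Scripts were tested on simulated data. R 4.3.3, limma 3.58.1, Python 3.11.15 and matplotlib 3.10.9 were used. A gene of the list of other acid-responsive proteins is not reported here.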

Additional observations from a re-analysis of the deposited data

Results flagged for a closer look

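In 24 groups of 5 or 6 samples of the members, 2 samples stood apart from the rest of their group by Dixon's test at the 95% level. Chance marks about 1 in 20 groups where values are normally distributed, which counts near 0 are not. The first was replicate A033 for Gpr65 in NRK-52E cells at pH 7.4, at 0.182 FPM from 4 counts beside 0 or 1 count in the other 5 samples. The second was replicate A035 for Pacc1 in the same group, at 41.7 FPM beside 27.1 to 31.8 FPM.

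The acid change differed between the lines by edgeR's interaction test for Trpv1, by -1.40 on the log2 scale (NRK-52E minus NRK-49F, adjusted p = 0.0179). It also differed for Pacc1, by -0.51 (adjusted p = 0.0367 in the same edgeR test). Both genes were higher in every acid sample than in every control sample of NRK-49F cells. Of all genes tested, 14.5% were called higher at pH 6.0 in these cells, and the share without overlap was not counted.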

How the results depend on the processing

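No paired analysis was possible because the replicate codes of the labels are unique to each sample and shared by no groups. The fall of Gpr4 and the rise of Trpv1 in NRK-52E cells and the rises of Trpv1 and Pacc1 in NRK-49F cells kept their direction and passed the threshold under all alternatives that tested them, including sample group as a block within each line. No called result reversed.

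Pacc1 in NRK-52E cells passed the threshold with RLE scaling (0.34), DESeq2 (0.34), the likelihood ratio test (0.30), at least 10 counts in every sample (0.30), each line alone (0.39) and sample groups 1 and 4 (0.55), and was 0.25 to 0.39 with each sample left out. Its difference between the lines lost the threshold with RLE scaling (-0.46), no filter (-0.49) and sample groups 1 and 4 (-0.25), and was -0.59 to -0.42 with each sample left out. The difference of Trpv1 lost it in sample groups 3 and 6 (-1.01). Hence 1 member was called for the difference under RLE scaling, no filter, the strict filter and either pair of sample groups, and 1 to 2 with each sample left out. Between the lines at pH 7.4, Pacc1 lost the threshold in sample groups 1 and 4 (0.18), with 0.27 to 0.42 when each sample was left out. At pH 6.0, Trpv1 lost it there (0.24) and Tmem175 passed (0.44), with 0.61 to 0.92 and 0.12 to 0.27 when each sample was left out. Under at least 10 counts in every sample, where fewer members were tested, 1 member was called in each line, 2 between the lines at pH 7.4 and 1 at pH 6.0. With no filter 5 were called between the lines at pH 6.0, beside 55.7% of all genes. Among these 5 were Asic3, higher in NRK-52E cells, and Gpr132, lower there. The causes were not tested.

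With 10 counts as the detection level, the number of samples over it went to 0 for Gpr4 and Asic3 in NRK-49F cells at pH 7.4, for Gpr65 in NRK-52E cells at pH 7.4 and for Gpr132 in NRK-49F cells at pH 6.0, to 1 for Trpv1 in NRK-49F cells at pH 7.4, to 1 and 2 for Asic3 in NRK-52E cells at pH 7.4 and 6.0, to 4 for Gpr4 in NRK-52E cells at pH 6.0 and to 5 for Trpv1 in NRK-52E cells at pH 7.4. Gpr65, Gpr132, Asic3 and, in NRK-49F cells, Gpr4 had few counts, and the part of depth in this was not tested.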
